A study of Homo sapiens with 4 samples.

Results

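The genes described here are NFE2L2, which encodes the transcription factor NRF2, its inhibitor KEAP1, and 7 antioxidant genes that NRF2 is known to drive: NQO1, GCLC, GCLM, SLC7A11, TXNRD1, SRXN1 and OSGIN1. They were chosen by name as members of this pathway, and all 9 of the 9 names have a row among the 27356 genes of the deposited tables. Polyadenylated RNA of HaCaT, an immortalised line of human keratinocytes, was sequenced after 72 h with M5 (2 libraries) or with phosphate-buffered saline, PBS (2 libraries), started at a plating density of 50%. M5 is a mixture of IL-1α, IL-17, IL-22, TNF-α and Oncostatin M at 10 μg/L each, used to bring keratinocytes into an inflamed state. Groups follow the library titles. For both M5 libraries the treatment tag instead names DAC at 25 μM, which the titles, the treatment protocol and the series description do not mention. The sources used here do not say whether the 2 libraries of a group came from separate cultures, so the tests measure the spread between libraries, which may be technical.

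KEAP1 normally binds NRF2 in the cytoplasm and, as an adaptor of the CUL3 ubiquitin ligase, has it degraded. Electrophiles and oxidants modify cysteines of KEAP1, NRF2 then builds up in the nucleus, pairs with a small MAF protein and binds antioxidant response elements. Much of this control acts on the NRF2 protein, which these data do not measure. In skin the pathway is known for its part in the defence against ultraviolet light and chemicals and, in mice, in the making of the cornified envelope.

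The libraries held 18992988 and 19749612 counts in M5 and 15858644 and 16051974 counts in PBS. All 10 keratinocyte markers examined had a mean of at least 1 FPKM (fragments scaled to gene length and library total), with a summed level of 4910 to 5190 FPKM in M5 and 3940 to 4000 FPKM in PBS. Of the markers of other cell types with a row (4 of 6 for fibroblasts, 3 of 3 for endothelium and 3 of 4 for melanocytes), each list summed to under 1 FPKM in every library. For leukocytes only CD3E of the 4 markers has a row, with at most 2 counts in a library, so leukocytes other than T cells were not checked. In RNA of a whole culture, a lower level per cell and fewer cells with the transcript cannot be told apart.

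The 250 bases before and 50 bases after each annotated start were searched on both strands for the antioxidant response element core TGACNNNGC, to which NRF2 and small MAF proteins bind, and for the AP-1 site TGACTCA, which can lie inside such an element. RefSeq (GRCh38.p14) gave 11 start windows for 8 of the 9 genes. SLC7A11 has none in the table used. An element core was found in 4 windows of 3 genes, GCLM, KEAP1 and TXNRD1, and 13.3% of the 35116 windows of all genes hold one. The AP-1 letters were found only in the OSGIN1 window among these genes, 97 bases before the start, and 4.95% of all windows hold them. A match describes letters and not binding, and the known elements of NQO1 and GCLC lie farther upstream than this window reaches. Not printed are a KEAP1 match 54 bases before its downstream start and a TXNRD1 match 8 bases before its upstream start. The lines below show 1 match of GCLM, 1 of KEAP1 and 2 of TXNRD1, since the first pair share the same core letters and TXNRD1, one of the genes that rose, has a match at each of its starts. Each is read 5′ to 3′ on the gene's own strand, with the matching letters in capitals (the reverse complement of the core for GCLM, KEAP1 and the second TXNRD1 line).
GCLM, chr1:93909446-93909474, minus strand, 34 bases before the start: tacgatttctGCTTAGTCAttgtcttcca
KEAP1, chr19:10502784-10502812, minus strand, 31 bases before its downstream start: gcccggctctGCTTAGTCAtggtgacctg
TXNRD1, chr12:104215670-104215698, plus strand, 99 bases before its upstream start: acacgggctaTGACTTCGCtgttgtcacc
TXNRD1, chr12:104286920-104286948, plus strand, 102 bases before its downstream start: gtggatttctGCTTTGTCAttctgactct

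With M5 the pathway did not move as a block. GCLC, NQO1 and SLC7A11 fell, TXNRD1 and NFE2L2 rose, and KEAP1, GCLM, SRXN1 and OSGIN1 did not pass the test. The test was edgeR's quasi-likelihood test on counts, fitted to all genes with a mean of at least 1 FPKM, and a gene is called changed at a Benjamini-Hochberg adjusted p under 0.05. All 9 genes passed the filter on low levels, each with a mean of at least 1 FPKM in M5 and in PBS. The 5 changed genes make up 55.6% of the 9, beside 55.9% of the 10809 genes tested. The 2 that rose stand beside 28.8% of all tested genes higher in M5, and the 3 that fell beside 27.1% lower in M5. The share of these genes that changed was thus close to the background, and the median log2 fold change of the 9 was -0.06, beside -0.01 for all tested genes.

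**Figure D1:**
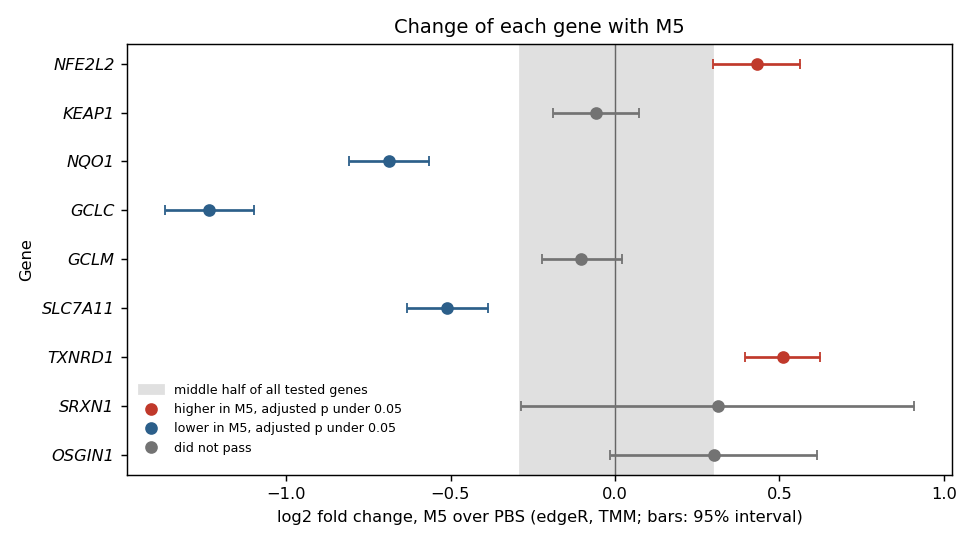
The log2 fold change of each of the 9 genes (M5 over PBS, 2 libraries each) is drawn as a point with its 95% interval from the edgeR fit, over a grey band that spans the interquartile range of all tested genes (-0.29 to 0.30). GCLC, NQO1 and SLC7A11 lie left of the band and NFE2L2 and TXNRD1 right of it. The NFE2L2 interval starts at 0.299, just beyond the band's edge at 0.298.

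The regulators come first. NFE2L2 (ENSG00000116044, chromosome 2, 177227595 to 177392697, minus strand, GRCh38) had 3045 and 3508 counts in M5, against 2142 and 2299 counts in PBS. Scaled for library size and composition by TMM (a trimmed mean of log ratios) and given as CPM, these were 169 and 187 CPM in M5 and 128 and 136 CPM in PBS. Both M5 libraries lay above both PBS libraries. The rise was 1.35-fold, with a log2 fold change of 0.43 (SE 0.06, with an adjusted p = 1.03e-05 in edgeR). It became 0.28 when libraries were scaled by their totals and 0.25 when they were scaled to a common FPKM sum, still passing the test in each.

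KEAP1 (ENSG00000079999, chromosome 19, 10486120 to 10503741, minus strand) had 1847 and 1801 counts in M5, against 1752 and 1721 counts in PBS. Its TMM-scaled levels were 103 and 95.8 CPM in M5 and 105 and 102 CPM in PBS, so the groups overlapped. Its log2 fold change was -0.06, with a 95% interval of -0.19 to 0.07 (edgeR adjusted p = 0.455). Scaling decided this call: with library totals the value was -0.21 (edgeR adjusted p = 0.00682), and with a common FPKM sum -0.24 (edgeR adjusted p = 0.0037). Over all genes tested the median was -0.01 with TMM, -0.16 with totals and -0.20 with a common FPKM sum, so KEAP1 lay close to that median in each.

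Within a library the ratio of 2 genes does not depend on scaling. The FPKM ratio of NFE2L2 to KEAP1 was 0.393 and 0.465 in M5, against 0.292 and 0.319 in PBS. Both M5 ratios were higher than both PBS ratios, with a log2 difference of 0.49. An exact two-sided permutation test of 2 against 2 libraries cannot give a p below 0.333, so none is given.

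The glutathione branch held the largest change among the 9 genes. Glutathione is made in 2 steps, and the first and limiting step is carried out by glutamate-cysteine ligase, a dimer of the catalytic subunit GCLC and the modifier subunit GCLM, which lowers the enzyme's sensitivity to feedback by glutathione. GCLC (ENSG00000001084, chromosome 6, 53497341 to 53616970, minus strand) had 937 and 1070 counts in M5, against 2126 and 2186 counts in PBS. This was 52.1 and 56.9 CPM in M5 and 127 and 129 CPM in PBS, with no overlap between the groups. GCLC was 2.35-fold lower in M5, with a log2 fold change of -1.23 (SE 0.07, with an adjusted p = 6.82e-12 in edgeR). Its absolute change exceeded that of 93.1% of all tested genes, and by FPKM it ranked above 46.6% of the tested genes in M5 and above 73.2% in PBS.

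GCLM (ENSG00000023909, chromosome 1, 93885205 to 93909456, minus strand) had 2275 and 2323 counts in M5, against 2215 and 2298 counts in PBS. The TMM-scaled levels were 127 and 124 CPM in M5 and 132 and 136 CPM in PBS. The groups lay close to each other without overlapping. The log2 fold change was -0.10, with a 95% interval of -0.22 to 0.02 (edgeR adjusted p = 0.147). GCLM was called lower with library totals (-0.25), with a common FPKM sum (-0.28), with limma on log2(FPKM + 1) (-0.24, limma adjusted p = 0.00693) and with a filter at a mean of 5 FPKM (-0.13).

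The subunits of the ligase therefore did not keep their ratio. The FPKM of GCLC divided by that of GCLM was 0.259 and 0.290 in M5, against 0.604 and 0.599 in PBS, which is 2.19-fold lower in M5. Libraries of the same group differed far less in this ratio than the groups did. Here too 2 against 2 libraries cannot give an exact p below 0.333.

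**Figure D2:**
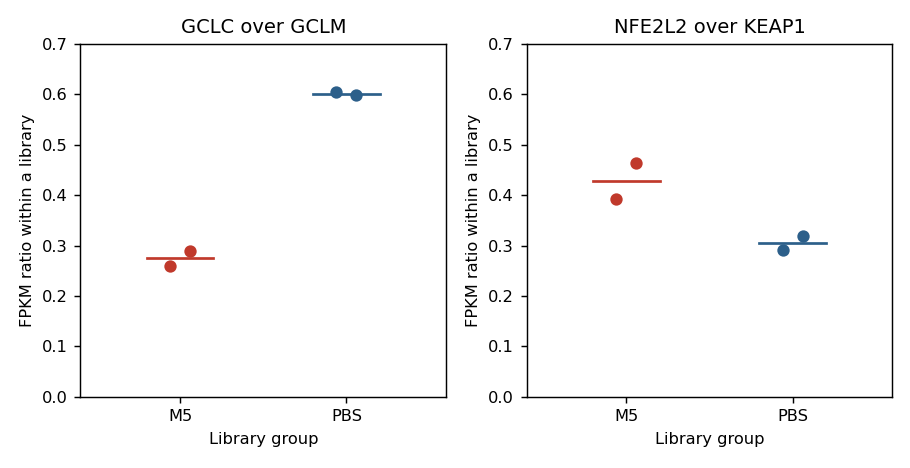
Points are the ratio of 2 genes' FPKM within a library, for M5 and PBS (2 libraries each), with the group mean as a line, on axes that start at 0. GCLC over GCLM averaged 0.275 ± 0.022 in M5 and 0.602 ± 0.004 in PBS, and NFE2L2 over KEAP1 averaged 0.429 ± 0.051 in M5 and 0.305 ± 0.019 in PBS (SD, n = 2 each).

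SLC7A11, the cystine-glutamate exchanger xCT that imports cystine, a source of the cysteine in glutathione, fell as well. SLC7A11 (ENSG00000151012, chromosome 4, 138164097 to 138242349, minus strand) had 1887 and 1950 counts in M5, against 2437 and 2560 counts in PBS. It stood at 105 and 104 CPM in M5 and 146 and 151 CPM in PBS, and the groups did not overlap. The fall was 1.42-fold, a log2 fold change of -0.51 (SE 0.06, with an adjusted p = 5.32e-07 in edgeR). Its partner chain SLC3A2, named after its values were seen, had 22204 and 22003 counts in M5 and 19830 and 19545 counts in PBS, a log2 fold change of 0.04 with a 95% interval of -0.07 to 0.15.

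NQO1 and TXNRD1, which were the most abundant of the 9 genes per length, moved in opposite directions. NQO1, a quinone reductase and the most used readout of NRF2 activity (ENSG00000181019, chromosome 16, 69706996 to 69726951, minus strand), had 3122 and 3311 counts in M5, against 4517 and 4961 counts in PBS. The levels were 174 and 176 CPM in M5 and 270 and 293 CPM in PBS, without overlap. NQO1 was 1.61-fold lower in M5, with a log2 fold change of -0.69 (SE 0.06, with an adjusted p = 8.18e-09 in edgeR).

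TXNRD1, the cytosolic selenoenzyme that keeps thioredoxin reduced (ENSG00000198431, chromosome 12, 104215779 to 104350305, plus strand), had 6749 and 7041 counts in M5, against 4302 and 4547 counts in PBS. It reached 376 and 375 CPM in M5, above the 257 and 269 CPM in PBS. The rise was 1.43-fold, a log2 fold change of 0.51 (SE 0.05, with an adjusted p = 1.88e-07 in edgeR), which became 0.33 with a common FPKM sum and 0.36 with library totals. It passed the test under every setting tried.

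SRXN1 and OSGIN1 had the lowest levels and gave the widest intervals. SRXN1, sulfiredoxin, which repairs overoxidised peroxiredoxins (ENSG00000271303, chromosome 20, 646615 to 653370, minus strand), had 76 and 50 counts in M5, against 50 and 43 counts in PBS. At 4.23 and 2.66 CPM in M5 and 2.99 and 2.54 CPM in PBS the groups overlapped. Its log2 fold change of 0.31 had a 95% interval of -0.29 to 0.91 (edgeR adjusted p = 0.37), and was -0.05 without M5 replicate 1. The interval holds both falls and rises, so no direction can be given. In GENCODE 29, 85.0% of the SRXN1 exon bases are shared with a longer gene on the same strand, AL121758.1, which had 3 and 3 counts in M5 and 2 and 4 counts in PBS. How reads that fall on both genes were counted is not given in the sources used here, and the part of this in the low SRXN1 counts was not tested.

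OSGIN1, an oxidative stress-induced growth inhibitor (ENSG00000140961, chromosome 16, 83948282 to 83966332, plus strand), had 299 and 301 counts in M5, against 190 and 256 counts in PBS. The levels were 16.6 and 16.0 CPM in M5 and 11.4 and 15.1 CPM in PBS, close to each other in M5 and apart in PBS, without overlap between the groups. By FPKM the groups did overlap, at 2.83 and 2.74 FPKM in M5 and 2.16 and 2.87 FPKM in PBS. The log2 fold change was 0.30, with a 95% interval of -0.02 to 0.62 (edgeR adjusted p = 0.0979). PBS replicate 1 carried much of this value: without it the log2 fold change was 0.11, and without PBS replicate 2 it was 0.52 and passed the test (edgeR adjusted p = 0.0202). For the other 8 genes the call was the same without any 1 of the 4 libraries.

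Set side by side per length, as FPKM, the genes ranged widely. The highest was NQO1, at 55.9 ± 0.779 FPKM in M5 and 100.0 ± 5.77 FPKM in PBS (SD, n = 2 each). TXNRD1 followed with 53.0 ± 0.124 FPKM in M5 and 41.3 ± 1.26 FPKM in PBS, so that NQO1 and TXNRD1 lay near each other in M5 and far apart in PBS. KEAP1 came next at 26.4 ± 1.20 FPKM in M5 and 30.5 ± 0.646 FPKM in PBS, then GCLM at 21.9 ± 0.281 FPKM in M5 and 26.1 ± 0.455 FPKM in PBS. SLC7A11 and GCLC stood at 10.3 ± 0.045 and 6.01 ± 0.398 FPKM in M5, and in PBS at 16.2 ± 0.426 and 15.7 ± 0.174 FPKM, where they differed by little more than the spread between libraries. OSGIN1 had 2.79 ± 0.064 FPKM in M5 and 2.51 ± 0.505 FPKM in PBS, and SRXN1 had 1.29 ± 0.411 FPKM in M5 and 1.15 ± 0.133 FPKM in PBS.

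NFE2L2 had 11.3 ± 0.817 FPKM in M5 and 9.29 ± 0.385 FPKM in PBS, but its place in this order rests on the length used. The deposited values imply a length of 14976 bp, 2.50 times the 5979 exon bases that GENCODE 29 gives it. For OSGIN1 the deposited length was 1.61 times the annotated one, and for the other 7 genes the factor was 0.913 to 1.00. Length does not enter the fold changes. Of the NFE2L2 exon bases 17.6% are shared with a gene on the same strand, AC019080.1, which had 51 and 62 counts in M5 and 59 and 54 counts in PBS. With genes on the other strand 4.1% are shared, 0.9% with AGPS, which had 2059 and 2306 counts in M5 and 2723 and 2760 counts in PBS. Of the GCLC exon bases 6.1% are shared with AL033397.1 on the same strand, which had 1 and 2 counts in M5 and 10 and 12 counts in PBS. Among the other 6 antisense partners with a row, GCLC-AS1 (listed as AL033397.2 in GENCODE 29) had 3 and 5 counts in M5 and 8 and 15 counts in PBS, and SLC7A11-AS1 had 23 and 18 counts in M5 and 44 and 39 counts in PBS, while the remaining 4, of NFE2L2 and TXNRD1, had at most 5 counts in any library. Of the NQO1 exon bases 17.7% are shared with a gene on the other strand that has no row, and of the OSGIN1 exon bases 13.9% with one on the same strand that has no row. The kit used for the libraries keeps no strand information, so reads from antisense partners cannot be separated from those of the gene.

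**Figure D3:**
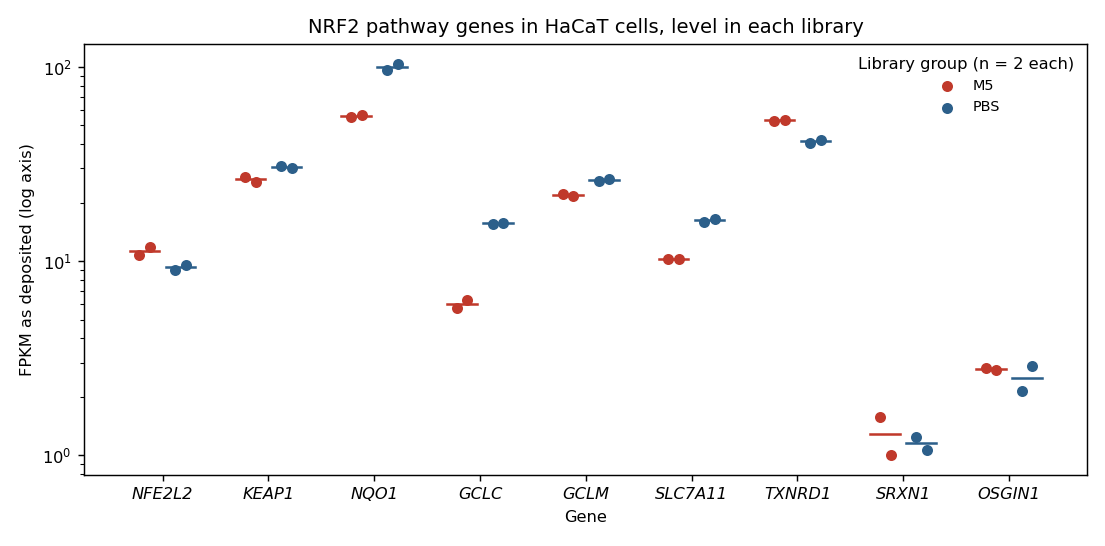
Each point is the deposited FPKM of a gene in 1 library, on a log axis, with M5 left of PBS and the group mean as a line (2 libraries each). The M5 points of NQO1, GCLC and SLC7A11 lie below their PBS points and those of TXNRD1 and NFE2L2 above. For SRXN1 and OSGIN1 the FPKM of the groups overlap. KEAP1 and GCLM lie slightly lower in M5.

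The wider lists that follow are read against the same background, which with TMM is 55.9% of all tested genes changed, 28.8% higher and 27.1% lower in M5. With a common FPKM sum it is 62.6% changed, 18.8% higher and 43.8% lower, and with library totals 61.7% changed, 20.4% higher and 41.3% lower. Under the common FPKM sum each of the 5 lists likewise had more genes called lower than with TMM. Among 21 listed regulators and partners of NRF2, 19 were tested, 9 rose and 1 fell, with a median log2 fold change of 0.11. The 10 changed genes are 52.6% of those tested, close to the 55.9% of all genes. With a common FPKM sum 9 rose and 6 fell and the median was -0.07, beside -0.20 for all tested genes. BACH1, a repressor that competes with NRF2 for the same elements, had 1632 and 1834 counts in M5, against 478 and 485 counts in PBS, and rose 3.29-fold (log2 fold change 1.72, SE 0.07, edgeR adjusted p = 2.98e-13). MAFF, a small MAF protein, had 1109 and 1049 counts in M5, against 325 and 359 counts in PBS, and rose 2.89-fold. The other small MAF genes in the list, named after their values were seen, rose too, MAFK by a log2 value of 0.93 and MAFG by 0.89. CDKN1A, the cell cycle inhibitor p21 that can also shield NRF2 from KEAP1, had the largest change of the list, a log2 fold change of 3.23 (SE 0.07). CUL3, the ligase scaffold, had a log2 value of -0.09 with a 95% interval of -0.21 to 0.04. SQSTM1, an autophagy receptor that binds KEAP1, was below the filter with 85 and 149 counts in M5 and 41 and 45 counts in PBS. CUL3 and SQSTM1 were also named after their values were seen.

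Other NRF2 targets and genes of NADPH supply moved in both directions. Of 33 listed, 29 were tested, 7 rose and 17 fell, with a median of -0.22. The 24 changed genes are 82.8% of those tested, beside 55.9% of all genes. With the filter at a mean of 5 FPKM 20 of the 25 genes left changed, beside 64.2% of all genes. With a common FPKM sum 5 rose and 18 fell, beside 18.8% higher and 43.8% lower of all genes. Without the filter 7 of 33 rose and 15 fell, beside 12.4% higher and 9.99% lower of all 27356 genes. Of those 27356 only 10809 pass the filter, against 29 of the 33 listed. The unfiltered background is thus of lower expression, and the shares are not a like comparison. PIR, an iron-binding nuclear protein, had 249 and 314 counts in M5, against 1026 and 1060 counts in PBS, and was 4.05-fold lower in M5 (log2 fold change -2.02, SE 0.10, edgeR adjusted p = 2.35e-12). TRIM16L was 2.70-fold lower in M5, but it closely resembles TRIM16, and how the reads were divided between them is not given. HMOX1, heme oxygenase, had 145 and 116 counts in M5, against 29 and 26 counts in PBS, and rose by a log2 value of 2.12 (SE 0.26). HMOX1 had under 1 FPKM in PBS and passed the filter through its M5 level. MT1X, also among the 7 that rose and named after its values were seen, lay near the filter and passed it only through its M5 level. It had 1.62 and 1.55 FPKM in M5, against 1.095 and 0.685 FPKM in PBS, and was not called with DESeq2 (DESeq2 adjusted p = 0.0722).

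Of 28 listed glutathione genes 21 were tested, 6 rose and 10 fell, with a median of -0.17. The 16 changed genes are 76.2% of those tested, beside 55.9% of all genes. With the filter at a mean of 5 FPKM 11 of the 14 genes left changed, beside 64.2% of all genes. With a common FPKM sum 5 rose and 13 fell, where 18.8% of all genes were higher and 43.8% lower. Without the filter 6 of 26 rose and 8 fell, where 12.4% of all genes were higher and 9.99% lower. Here too the levels are unlike, since 21 of the 26 pass the filter, against 10809 of all 27356 genes. GPX4, the selenoenzyme that reduces lipid peroxides in membranes, had 1564 and 1562 counts in M5, against 3172 and 3369 counts in PBS, and was 2.29-fold lower in M5 (log2 fold change -1.19, SE 0.06, edgeR adjusted p = 3.69e-12). GPX3, a secreted glutathione peroxidase, had 379 and 431 counts in M5, against 18 and 14 counts in PBS, a log2 fold change of 4.52 (SE 0.21). It too passed the filter only through its M5 level. GSTZ1, named after its values were seen, is among the 10 that fell. It had 0.995 and 0.969 FPKM in M5, against 1.47 and 1.52 FPKM in PBS. GSTZ1 passed the filter only through its PBS level and was not called with DESeq2 (DESeq2 adjusted p = 0.0707). CHAC1, which breaks glutathione down, rose 2.33-fold.

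Of 22 listed thioredoxin, peroxiredoxin and glutaredoxin genes 19 were tested, 2 rose and 8 fell, with a median of -0.10. The share changed, 52.6%, was close to the 55.9% of all genes. With a common FPKM sum 2 rose and 12 fell, under the scaling that calls 43.8% of all genes lower. GLRX, a glutaredoxin, rose by a log2 value of 1.56 (SE 0.16) and TXNIP, which binds and inhibits thioredoxin, by 1.12 (SE 0.07). SESN3, a sestrin, was 1.96-fold lower in M5. Thioredoxin itself, TXN, the substrate of TXNRD1 and named after its values were seen, had 9639 and 10703 counts in M5 and 9246 and 9707 counts in PBS, a log2 fold change of -0.03 with a 95% interval of -0.14 to 0.09.

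ATF4, the factor of the amino acid stress response, also drives SLC7A11 and CHAC1. Of 20 listed genes of that response 16 were tested, 4 rose and 4 fell, with a median of 0.08. The 8 changed genes are 50% of those tested, close to the 55.9% of all genes. With a common FPKM sum 11 of the 16 changed, beside 62.6% of all genes. Under that scaling 4 rose and 7 fell and the median was -0.10, beside -0.20 for all genes. CEBPB rose by a log2 value of 1.30 (SE 0.06) and CHAC1 by 1.22 (SE 0.11), while PHGDH, the entry enzyme of serine synthesis, was 2.27-fold lower in M5. ATF4, named after its values were seen, had a log2 fold change of 0.09 with a 95% interval of -0.02 to 0.20.

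**Figure D4:**
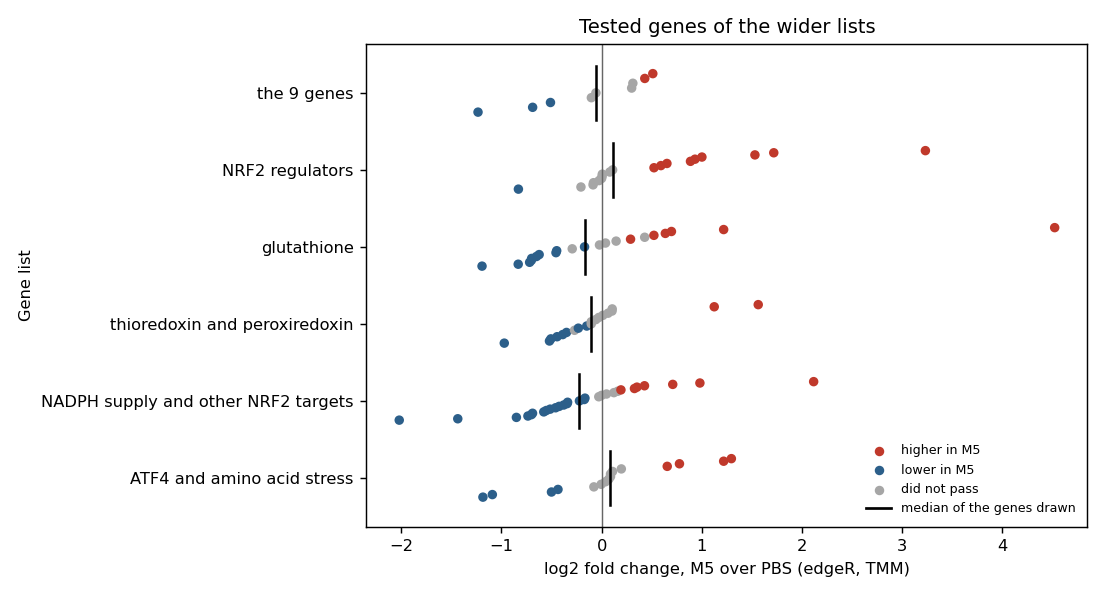
Each point is the log2 fold change (M5 over PBS) of a tested gene, by list, coloured by its edgeR call, with the median of the drawn genes as a black line. The list of other NRF2 targets runs from PIR at -2.02 to HMOX1 at 2.12 with 7 genes higher and 17 lower, and the list of regulators has 9 genes higher and 1 lower, beside 28.8% higher and 27.1% lower of all tested genes.

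**Figure D5:**
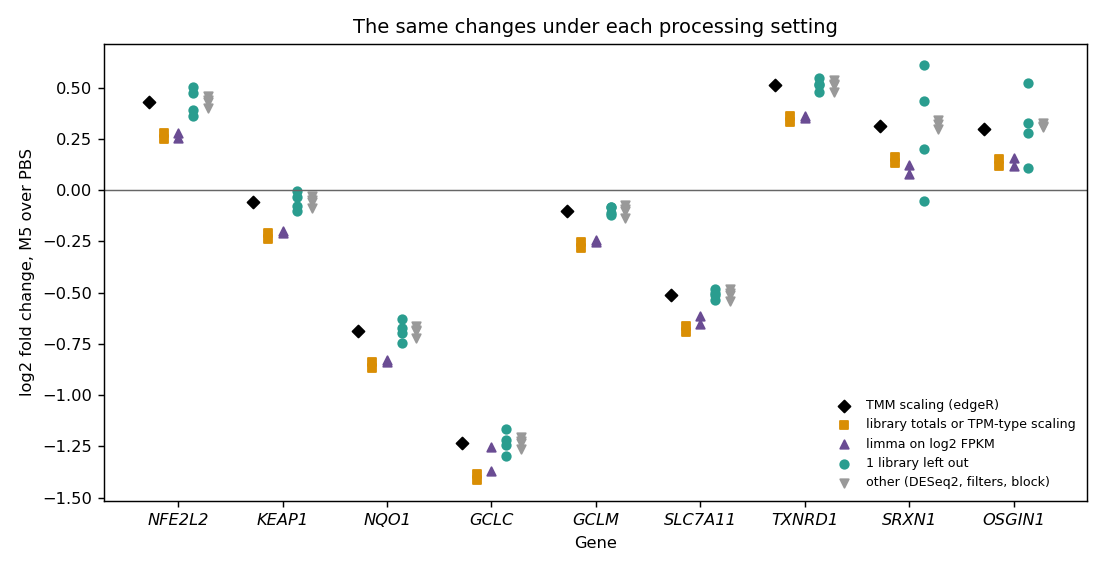
The log2 fold change of each of the 9 genes is drawn under every processing setting tried. GCLC, NQO1 and SLC7A11 stay below 0 and NFE2L2 and TXNRD1 above 0 in all, all values shift down with library totals, a common FPKM sum and limma on FPKM + 0.1, and SRXN1 crosses 0 without M5 replicate 1.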

How the data were processed

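Per the file headers, each deposited table holds 1 library with a read count and an FPKM value per Ensembl gene. The authors' FPKM match these counts divided by gene length and library total, since the implied lengths are whole numbers with a deviation of at most 3.06e-08 bp. HISAT2, HTSeq 0.13.5 and GRCh38 are listed, per the submitters' processing notes, with no roles. The sources used here do not give the HISAT2 version, annotation release or strand setting. Positions come from GENCODE 29 (GRCh38), which holds 25496 of the 27356 identifiers.

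Counts were tested with edgeR 4.0.16 in R 4.3.3 (TMM, two-sided quasi-likelihood test, Benjamini-Hochberg adjustment over all 10809 genes with a mean of at least 1 FPKM), and the step was tested on simulated data. Standard errors are the log2 fold change over the square root of F, and 95% intervals use the fit's degrees of freedom. They rest on 2 libraries a group. Alternatives were other scalings and filters, DESeq2 1.42.0, limma 3.58.1 on log2(FPKM + 1) and log2(FPKM + 0.1), a replicate block, an adjusted p under 0.01 and each library left out. The 9 genes and the wider lists were chosen with earlier results of these data known. All 9 genes are named, and from each wider list up to 3 changed genes with the largest absolute log2 fold change. Others are said to be named after their values were seen.

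Within each group the libraries differed beyond counting error (median chi-square per gene 1.44 in M5 and 0.976 in PBS, where sampling alone gives 0.455), so none was treated as a copy.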

Additional observations from a re-analysis of the deposited data

How the results depend on the processing

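GCLC, NQO1 and SLC7A11 were called lower and NFE2L2 and TXNRD1 higher in all 13 fits that tested them at an adjusted p under 0.05, with log2 fold changes of -1.41 to -1.17 for GCLC, -0.87 to -0.63 for NQO1, -0.69 to -0.48 for SLC7A11, 0.25 to 0.50 for NFE2L2 and 0.33 to 0.54 for TXNRD1. The number of the 9 genes called was 5 to 7. It was 5 with TMM, beside 55.9% of all tested genes, and 5 with DESeq2, beside 47.6%. Without the filter it was also 5, beside 22.4% of all 27356 genes, most of which lie below the filter. Library totals (61.7% of all genes called), a common FPKM sum (62.6%) and limma on log2(FPKM + 1) (56.7%) or log2(FPKM + 0.1) (56.5%) each gave 7. The filter at a mean of 5 FPKM gave 6 of the 7 genes it left, beside 64.2% of all genes. KEAP1 was also called with limma on log2(FPKM + 1) (-0.20) and on log2(FPKM + 0.1) (-0.21), and GCLM with the second (-0.25). With library totals or a common FPKM sum, 33.0% and 30.0% of the changed genes were higher in M5, against 51.5% with TMM. Of the NRF2 regulators, 10 changed with TMM and 15 with either of these scalings, which called 61.7% and 62.6% of all genes against 55.9% with TMM. SRXN1, at -0.05 without M5 replicate 1 and 0.61 without M5 replicate 2, did not pass in any fit; M5 replicate 1 had the highest SRXN1 count of the 4 libraries. OSGIN1 passed in 1 fit, without PBS replicate 2. Without each library in turn, the log2 change of the GCLC to GCLM ratio ranged from -1.21 to -1.05. With all 4 libraries it was -1.13 (pooled SD between libraries 0.081). With 2 libraries a group such a shift is set by the difference within the pair, so it is no separate check on that spread. In fits with 1 library in a group, that library is assumed to vary like those of the other group. Deviations of same-numbered libraries did not go together (correlation -0.0134 over genes). This rests on 1 difference per group, so it cannot show whether same-numbered libraries were made as pairs. The fit with the replicate block called 6091 genes against 6043, with the same calls for the 9 genes. SRXN1 and OSGIN1 lay below the filter at a mean of 5 FPKM. SRXN1 had the lowest counts of the 9 genes, 43 to 76 a library, and the widest interval.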
